A study of Mus musculus with 2 samples.

Results

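The tumour suppressor p53, encoded by Trp53, and 9 genes that it is known to activate (Cdkn1a, Mdm2, Bax, Bbc3, Pmaip1, Ccng1, Phlda3, Zmat3 and Sesn2) were described in single cells of a mouse breast tumour. The 10 genes were chosen by symbol from the 33696 genes of the count table, and all 10 were found there. Tumours of 4T1, a mouse mammary carcinoma line, grew under the skin of wild-type mice. Control animals received PBS, a salt solution. Treated animals received an agent named PCN in the sample labels and PATCH in the title of the series. Dose, time and age are not in these labels. Each group was 1 library of transcripts counted as unique molecular identifiers (UMIs), and the number of animals behind a library is not given in the sources used here.

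All values are counts of the treated library, and treated and control tumours were not set against each other. The matrix held 12309 barcodes, of which the authors kept 10835, with a median of 3575 UMIs. Of the 11643 control barcodes that the authors listed, 37 were in the matrix, and 33 of these were also treated barcodes. Cells were put in classes by the share of their UMIs from a few marker genes, first match in this order: neutrophil (S100a8, S100a9, Csf3r and G0s2 at 2% or more), fibroblast (Col1a2, Col3a1 and Dcn at 0.5%), tumour (Krt8, Krt18, Krt7 and Epcam at 0.1%), T/NK (Cd3e, Cd3g, Trbc2 and Ncr1 at 0.1%) and macrophage (C1qa, C1qb, Csf1r, Apoe and Lyz2 at 0.3%). The tumour class held 322 cells (2.97% of kept cells; 95% interval 2.66 to 3.31%), and 66 of these lay between 0.1 and 0.2%. Just outside, 63 cells carried between 0.05 and 0.1% of tumour markers and met neither the neutrophil nor the fibroblast threshold. Host cells were the 4 other classes together, 8753 cells, made up of 4672 macrophages, 3518 neutrophils, 325 fibroblasts and 238 T/NK cells. A further 1760 cells met no threshold. The kept cells ended at 19989 UMIs, and 394 of the left-out barcodes at 20000 UMIs or more met the tumour rule. These deep tumour barcodes held 15198677 UMIs against 3327262 in the kept tumour cells, and their values are given beside those of the kept cells.

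In cells with DNA damage or other stress, p53 is stabilised and switches on genes that stop the cell cycle, repair DNA or start cell death, and Mdm2, itself a target, marks p53 for destruction. Because the targets answer to other factors as well, a target can be expressed in a cell without active p53. 4T1 has been described as lacking functional p53, and tumour-infiltrating host cells carry their own, normal copies of Trp53. UMIs taken at the 3′ end count Trp53 transcripts and show neither a mutation nor the protein.

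The class labels were checked with markers that the rule did not use. Cldn4, a tight junction gene of epithelia, stood at 311 counts per 1000000 UMIs (CPM) in tumour cells and 2.20 CPM in host cells, and of 5 such epithelial markers Cldn4, Cdh1, Krt14 and Krt19 were highest in the tumour class, while Cldn3 was at 0 there. All 4 check markers were highest in their own class for fibroblasts, macrophages and T/NK cells, and 3 of 4 for neutrophils. RNA of other cells was present in the tumour class. Macrophage check markers C1qc, Adgre1, Cd68 and Mrc1 reached 2.87 to 4.46% of their macrophage levels there, and Cd68 was seen in 8.07% of tumour cells, against 70.6% of macrophages. Neutrophil check markers summed to 219 CPM in the tumour class, of which Mmp9 made up 166, against 8151 CPM in neutrophils. Fibroblast check markers summed to 79.9 CPM in the tumour class, against 15090 CPM in fibroblasts. In the T/NK class, endothelial markers summed to 205 CPM, of which Pecam1 made up 190, and dendritic cell markers to 180 CPM, of which Ccr7 made up 165. Each sum thus rested mainly on 1 gene. The other markers of these lists had 0 (Flt3, Xcr1 and Vwf) to 11 UMIs (Zbtb46) in that class, so the sums do not show other cell types there. The tumour class had 8.42 and 6.61 CPM of these lists. Levels below are summed UMIs of a class in CPM with exact 95% Poisson intervals. Ratios carry the exact conditional interval of 2 Poisson counts, and shares of cells an exact Clopper-Pearson interval. All of these cover counting error only. The single library allowed neither a check between replicates nor a test.

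Cdkn1a (ENSMUSG00000023067) is shown with its promoter because its level differed widely between classes and its p53 elements are among the best known. RefSeq lists 2 starts for Cdkn1a, 2790 bases apart (GRCm38.p6). The 250 bases before the upstream start, chr17:29090729-29090978 on the plus strand, are printed 5′ to 3′ with a match to the p53 element in capitals.
Cdkn1a: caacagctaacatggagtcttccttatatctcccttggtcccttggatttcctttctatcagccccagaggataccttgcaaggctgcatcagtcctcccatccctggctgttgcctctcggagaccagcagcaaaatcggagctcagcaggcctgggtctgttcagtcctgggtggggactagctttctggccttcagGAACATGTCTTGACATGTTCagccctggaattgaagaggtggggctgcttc

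The match began 51 bases before the start and had 1 mismatch to the 20-letter p53 element, searched with both of its 4-letter cores intact and up to 2 mismatches elsewhere. The element is its own reverse complement, so 1 search covers both strands. Over all RefSeq windows from 250 bases before to 50 after a start, 52 of 32851 (0.158%) held a match. Of the 10 genes, 8 had 11 windows in the table, and the Cdkn1a window was the 1 that held the element, while Zmat3 and Pmaip1 had no window. The element in the other members may lie outside these windows, and a match is a description of letters, not of binding. Among 70 further pathway genes with a window, described below, 3 held a match, shown for comparison with the Cdkn1a site.
Ckap2: AGACATGTCCTGACTTGTCA
Rps27l: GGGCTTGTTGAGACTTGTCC
Gtse1: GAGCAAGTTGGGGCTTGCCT

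The Ckap2 site lies at chr8:22186003-22186022 (minus strand, 2 mismatches), the Rps27l site at chr9:66946296-66946315 (plus strand, 1 mismatch) and the Gtse1 site at chr15:85859945-85859964 (plus strand, 1 mismatch).

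Kept tumour cells carried 0.919 times (0.784 to 1.07) the Trp53 RNA of the summed host cells, but less than each host class except neutrophils. Most of its targets were also below their host level. Cdkn1a, the cyclin-dependent kinase inhibitor p21, was 0.0790 times its host level, and Pmaip1, the death-promoting protein Noxa, 0.0526 times. Bbc3, the death-promoting protein Puma, was 3.24 times its host level. A gene was called past 2-fold at a ratio of at least 2 or at most 0.5 with at least 20 UMIs over both sides. In tumour against host cells, 5 of the 10 genes were past 2-fold lower (Cdkn1a, Mdm2, Pmaip1, Ccng1 and Sesn2), where 20% of the 15963 genes with enough UMIs were (3193 genes), and 2 were past 2-fold higher (Bbc3 and Phlda3), where 27.4% of all genes were. The median log2 ratio was −1.01 over the 9 targets and 0.22 over all genes. Of the 49091694 host UMIs, 37081851 came from macrophages. Fibroblasts, the host class nearest to tumour cells in depth, are set beside the host ratio for each gene.

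**Figure D1:**
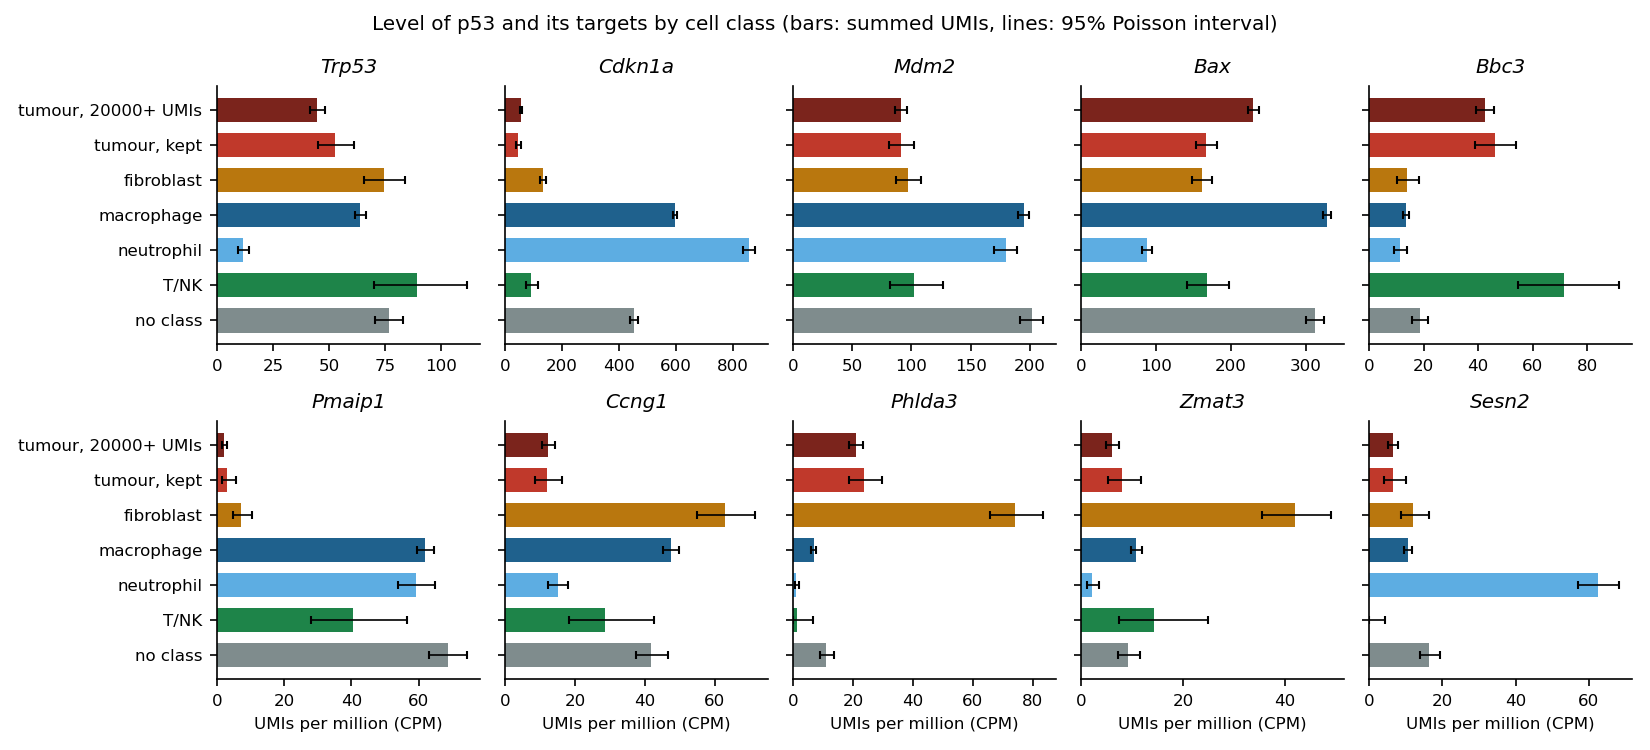
Level of each of the 10 genes in CPM (horizontal axis, linear, from 0, scaled separately for each gene) in deep tumour barcodes, kept tumour cells and each other class; bars are summed UMIs of the class and lines are 95% Poisson intervals. Cdkn1a stands at 46.9 CPM in kept tumour cells and 859 CPM in neutrophils, while Bbc3 is highest in T/NK cells at 71.4 CPM, followed by tumour cells.

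Trp53 (ENSMUSG00000059552) RNA was present in every class. It stood at 52.6 CPM in tumour cells (175 UMIs; interval 45.1 to 61.0) and 44.6 CPM in deep tumour barcodes (678 UMIs; 41.3 to 48.1). Among host cells it was 89.2 CPM in T/NK cells (70.2 to 112), 74.4 in fibroblasts (65.8 to 83.8), 64.1 in macrophages (61.5 to 66.7) and 11.7 in neutrophils (9.38 to 14.4). Cells without a class lay at 76.6 CPM. The intervals of T/NK cells, cells without a class, fibroblasts and macrophages overlapped from each to the next, tumour cells lay just under macrophages, and neutrophils lay far under all others. The tumour to host ratio was 0.919 (0.784 to 1.07), and the tumour to neutrophil ratio 4.50 (3.46 to 5.88). Against fibroblasts it was 0.707 (0.581 to 0.858). With the mean over cells of each cell's CPM in place of summed UMIs, the host ratio was 1.25, on the other side of 1. After each cell was thinned to 1000 UMIs, which removes differences in depth, Trp53 was seen in 3.60% of tumour cells (10 of 278), 7.19% of fibroblasts and 0.803% of neutrophils. Unthinned shares were 35.4, 49.2 and 2.22%.

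Mdm2 (ENSMUSG00000020184), the ubiquitin ligase that limits p53, had 2 levels across the classes. Macrophages stood at 195 CPM (190 to 199) and neutrophils at 180 CPM (170 to 189), while T/NK cells, fibroblasts and tumour cells stood at 102, 97.2 and 91.1 CPM with overlapping intervals. The tumour to host ratio of 0.496 (0.441 to 0.556) lay at the 2-fold limit, and its interval crossed the limit. It was over 0.5, and the call lost, with all barcodes or deep barcodes added (0.530 in each), with tumour cells of low myeloid marker share (0.514), with the mean over cells (0.619) and with the host classes at equal weight (0.635). Tumour cells and fibroblasts were close, with a ratio of 0.937 (0.801 to 1.10). However, 1 fibroblast alone held 72 of the 354 Mdm2 UMIs of its class, which the counting intervals do not allow for. The fibroblast level and this ratio thus rest partly on that cell. Deep tumour barcodes gave the same level as kept tumour cells, 91.1 CPM.

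Cdkn1a and Ccng1 act on the cell cycle. Cdkn1a, which blocks cyclin-dependent kinases, stood at 46.9 CPM in tumour cells (39.8 to 54.8), 91.6 in T/NK cells (72.3 to 114), 133 in fibroblasts (121 to 145), 596 in macrophages (589 to 604) and 859 in neutrophils (838 to 880). No 2 neighbours in this order had overlapping intervals. In thinned cells, 3.60% of tumour cells had a Cdkn1a UMI, against 11.9% of fibroblasts, 37.9% of macrophages and 48.8% of neutrophils. Before thinning the shares were 29.5, 43.7, 83.2 and 62.5%. The highest count in a kept tumour cell was 6 UMIs, and in a macrophage or neutrophil 51. The 10% of macrophages richest in Cdkn1a held 37.3% of its UMIs in that class.

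The Cdkn1a level in tumour cells was 7.86% of that in macrophages (6.67 to 9.20%), above the 2.87 to 4.46% of the 4 macrophage check markers. Among tumour cells the Cdkn1a level moved with RNA of myeloid cells. The 161 tumour cells with the lower share of myeloid markers had 29.0 CPM (21.8 to 37.7; median 12646 UMIs), and the other 161 had 70.6 CPM (57.5 to 85.8; median 8392 UMIs). The part that RNA of other cells has in the tumour level of Cdkn1a was not tested beyond this. With the first set alone, the tumour to host ratio was 0.0488 in place of 0.0790, and with the mean over cells it was 0.139. Against fibroblasts it was 0.353 (0.293 to 0.423), and between deep tumour and deep fibroblast barcodes 0.604 (0.545 to 0.668), no longer past 2-fold.

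Ccng1 (ENSMUSG00000020326), cyclin G1, which brings a phosphatase to Mdm2, was at 12.0 CPM in tumour cells (8.59 to 16.4) and 12.2 CPM in deep tumour barcodes. Neutrophils, at 15.01 CPM, overlapped with tumour cells. T/NK cells stood at 28.5, macrophages at 47.4 and fibroblasts at 62.9 CPM. The ratio to host cells was 0.278 (0.198 to 0.380) and to fibroblasts 0.191 (0.133 to 0.268), so Ccng1 was past 2-fold lower against either. With the mean over cells the host ratio was 0.455.

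Bax, Bbc3 and Pmaip1 belong to the BCL2 family that opens mitochondria during cell death, and each had its own pattern. Bax (ENSMUSG00000003873), which forms the pore, stood at 167 CPM in tumour cells (153 to 181), beside 161 in fibroblasts and 168 in T/NK cells. Macrophages were higher, at 328 CPM, and neutrophils lower, at 88.0 CPM. The host ratio for Bax was 0.602 (0.552 to 0.656), and the ratio to fibroblasts 1.03 (0.917 to 1.16). Deep tumour barcodes had more Bax than kept tumour cells, 230 against 167 CPM, and their host ratio was 0.832.

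Bbc3 (ENSMUSG00000002083), which frees Bax from its inhibitors, stood at 46.0 CPM in tumour cells (39.0 to 53.9) and 42.4 CPM in deep tumour barcodes (39.2 to 45.8). Fibroblasts, macrophages and neutrophils lay together at 13.7, 13.5 and 11.3 CPM. T/NK cells were the one host class above tumour cells, at 71.4 CPM (54.5 to 91.9) from 60 UMIs. The ratio of tumour to host cells was 3.24 (2.70 to 3.86). It was 3.35 (2.42 to 4.71) against fibroblasts, 4.81 (3.73 to 6.29) between deep tumour and deep fibroblast barcodes, and 0.644 (0.475 to 0.884) against T/NK cells. With the 4 host classes at equal weight, which gives T/NK cells more room, the ratio was 1.67. In thinned cells, 3.96% of tumour cells (1.99 to 6.97%) and 5.84% of deep tumour barcodes had a Bbc3 UMI, against 0.938% of fibroblasts, 1.34% of macrophages and 8.30% of T/NK cells.

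Pmaip1 (ENSMUSG00000024521), which neutralises the survival protein Mcl1, gave 10 UMIs in all tumour cells, or 3.01 CPM (1.44 to 5.53), and 2.11 CPM in deep tumour barcodes (1.44 to 2.97). Fibroblasts stood at 7.14 CPM (4.66 to 10.5), T/NK cells at 40.4, neutrophils at 59.1 and macrophages at 62.1 CPM. Before thinning 2.80% of tumour cells had a Pmaip1 UMI, and after thinning 0.360%, or 1 of 278. The tumour level was 4.84% of the macrophage level (2.32 to 8.92%), and in deep tumour barcodes 3.39% (2.32 to 4.80%). The macrophage check markers, which tumour cells should lack, stood at 2.87 to 4.46% and 2.69 to 3.30% of their macrophage levels in the same cells, within these intervals. Tumour Pmaip1 could therefore not be told apart from RNA of other cells at this depth. The ratio to host cells was 0.0526 (0.0252 to 0.0968) and ranged from 0.0175 to 0.156 over 10 other settings. Against fibroblasts it was 0.421 (0.181 to 0.902). Pmaip1 stood at 16.7 CPM in deep fibroblast barcodes, 2.34 times (1.52 to 3.72) the kept ones, where 5.37% of genes were past 2-fold higher.

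Phlda3 and Zmat3 were highest in fibroblasts. Phlda3 (ENSMUSG00000041801), a repressor of the kinase Akt, stood at 74.1 CPM in fibroblasts (65.5 to 83.5), 23.7 in tumour cells (18.8 to 29.6), 6.82 in macrophages (6.01 to 7.72), 1.19 in T/NK cells and 1.06 in neutrophils. Only 1 UMI was counted in T/NK cells and 8 in neutrophils. Tumour cells were thus 2.19 times (1.71 to 2.78) the host level and 0.320 times (0.246 to 0.413) the fibroblast level, a change of direction with the cells compared. Deep tumour barcodes were at 20.9 CPM, 1.92 times the host level and under the 2-fold limit. The ratio was also under 2 with all barcodes (1.18) and with the host classes at equal weight (1.14). Deep macrophage barcodes had 0.328 times (0.197 to 0.517) the Phlda3 of kept macrophages, the 1 member past 2-fold lower in that comparison, where 3.67% of genes were lower and 5.22% higher.

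Zmat3 (ENSMUSG00000027663), an RNA-binding protein that controls splicing and transcript stability, stood at 42.0 CPM in fibroblasts (35.6 to 49.2), 14.3 in T/NK cells, 10.8 in macrophages, 8.11 in tumour cells (5.35 to 11.8) and 2.13 in neutrophils. The interval of the host ratio, 0.683 (0.446 to 1.005), reached 1, and that of the fibroblast ratio, 0.193 (0.123 to 0.292), lay under 0.5. Only 27 Zmat3 UMIs were counted in kept tumour cells. Deep tumour barcodes, with 93 UMIs, gave 6.12 CPM and a host ratio of 0.515 (0.409 to 0.642). The host ratio was past 2-fold lower with all barcodes (0.477), with deep barcodes added (0.483) and with the host classes at equal weight (0.469).

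Sesn2 (ENSMUSG00000028893), sestrin 2, a stress protein that restrains mTORC1, was highest in neutrophils, at 62.4 CPM (56.9 to 68.4). Cells of the fibroblast, macrophage and tumour classes stood at 12.1, 10.7 and 6.61 CPM (4.14 to 10.01 for tumour cells). T/NK cells had 0 UMIs of Sesn2, and 3 counts over that class would be 3.57 CPM. The host ratio was 0.357 (0.223 to 0.544), and 0.217 with the tumour threshold at 0.5%. Deep tumour barcodes, at 6.38 CPM, gave 0.345 (0.277 to 0.425). Against fibroblasts the ratio was 0.547 (0.312 to 0.933), and between deep tumour and deep fibroblast barcodes 0.629 (0.461 to 0.860), neither past 2-fold. Against macrophages it was 0.621 (0.385 to 0.953) and against neutrophils 0.106 (0.0657 to 0.162).

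**Figure D2:**
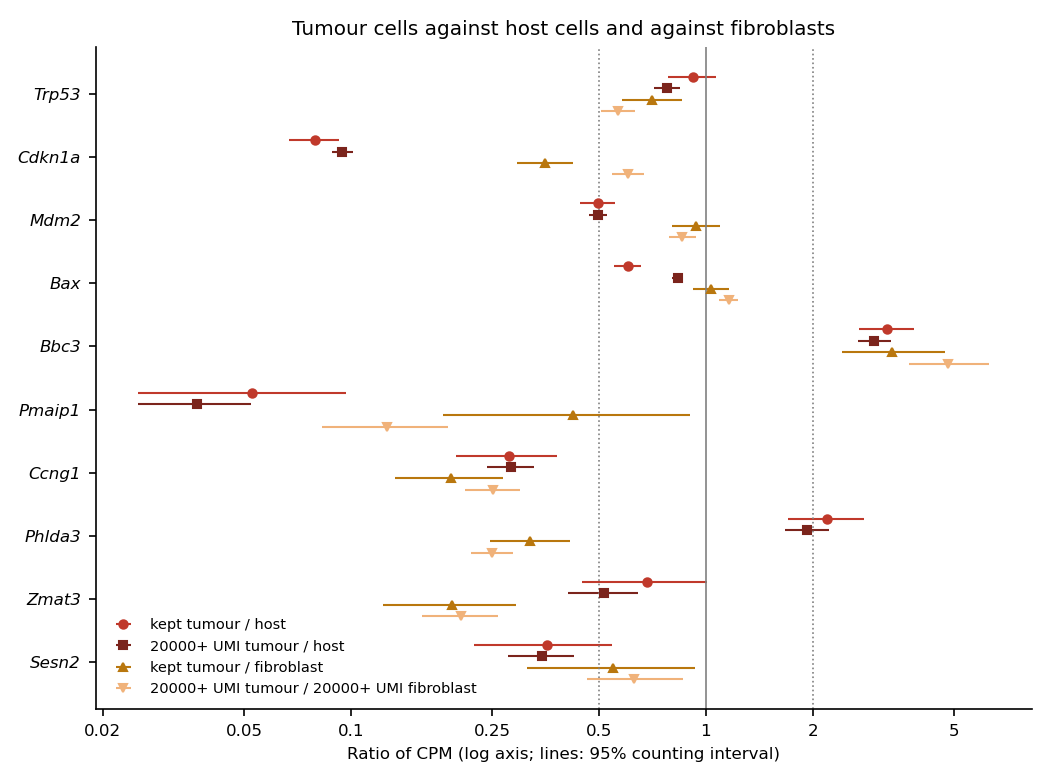
Ratio of CPM (horizontal log axis) for each gene, with the 95% counting interval as a line: kept tumour cells and deep tumour barcodes over host cells, kept tumour cells over fibroblasts, and deep tumour over deep fibroblast barcodes; the dotted lines mark 0.5 and 2. Bbc3 lies above 2 in each comparison, and Phlda3 lies near 2 over host cells and at 0.320 over kept fibroblasts.

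Against fibroblasts alone, 5 of the 10 genes were past 2-fold lower (Cdkn1a, Pmaip1, Ccng1, Phlda3 and Zmat3), where 16.6% of 12060 genes were, and Bbc3 was past 2-fold higher, where 25.2% were. Against macrophages alone, 4 were lower (Cdkn1a, Mdm2, Pmaip1 and Ccng1; 18.4% of all genes) and Bbc3 and Phlda3 higher (28.5%). Against neutrophils, Cdkn1a, Pmaip1 and Sesn2 were lower (17.8%) and Trp53, Bbc3, Phlda3 and Zmat3 higher, where 56.6% of all genes were higher and the median log2 ratio was 1.39. Against T/NK cells, Pmaip1 and Ccng1 were lower (13.9%) and Phlda3 higher (28.0%). Between deep tumour and deep fibroblast barcodes, Pmaip1, Ccng1, Phlda3 and Zmat3 were lower (17.1% of all genes) and Bbc3 higher (20.3%). Deep tumour barcodes against host cells gave the same 5 genes lower as the kept tumour cells, where 26.9% of all genes were, and Bbc3 higher, where 26.0% were. Between deep tumour and deep macrophage barcodes, Cdkn1a, Pmaip1 and Ccng1 were lower (17.8%) and Bbc3 and Phlda3 higher (26.4%). The comparisons of tumour with host share the tumour cells or the host cells, so their likeness is no independent support. No member differed past 2-fold between deep and kept tumour barcodes, where 2.69% of genes were higher and 3.56% lower. The widest of these ratios were 1.38 for Bax (1.26 to 1.51) and 0.701 for Pmaip1 (0.336 to 1.60), the latter from 10 kept UMIs.

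Counted per cell, fewer of the 9 targets together were seen in tumour cells than in macrophages. Of tumour cells thinned to 1000 UMIs, 70.5% had no UMI of any of the 9 targets, against 59.7% of fibroblasts, 62.0% of T/NK cells, 35.3% of neutrophils and 32.0% of macrophages. The mean number of targets seen was 0.360 in tumour cells, 0.434 in deep tumour barcodes, 0.550 in fibroblasts, 0.859 in neutrophils and 1.003 in macrophages. Of tumour cells 5.76% had 2 or more targets, and of macrophages 25.5%. In thinned macrophages Cdkn1a (37.9%), Bax (28.0%) and Mdm2 (17.9%) were seen most, so these counts rest mainly on them. Bbc3 (3.96 against 1.34%) and Phlda3 (2.88 against 0.791%) were seen in a larger share of tumour cells than of macrophages. Other genes were not counted in this way.

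Inside the tumour class, targets were described by signs of cycling and of Cdkn1a itself. Tumour cells with a UMI of Mki67 or Top2a, genes of dividing cells, had 40.4 CPM of Cdkn1a (29.9 to 53.4), and those without had 50.6 CPM (41.5 to 61.2). Deep tumour barcodes had 58.6 CPM (54.4 to 63.2) with and 47.7 CPM (40.6 to 55.6) without. The Cdkn1a intervals overlapped in kept cells and in deep barcodes, and the 2 sets went in opposite directions. Overlap does not show equal levels, and the differences were not tested. Of the 854 Cdkn1a UMIs in deep tumour barcodes, 62 came from 1 barcode. Bax stood at 244 CPM (236 to 253) in deep tumour barcodes with a cycling UMI and 180 CPM (166 to 195) without. Bbc3, at 41.4 and 45.6 CPM, and Trp53, at 44.2 and 45.9 CPM, also had overlapping intervals. The 95 tumour cells with a Cdkn1a UMI had 54.6 CPM of Bbc3 (42.0 to 69.9) and 97.1 CPM of Mdm2 (80.0 to 117), and the 227 without had 41.4 CPM (33.3 to 50.9) and 87.9 CPM (75.8 to 101), overlapping in each case. Cells with a UMI of a gene tend to be deeper, and depth was not matched here.

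Thinned macrophages were also split by a Trp53 UMI. Only 5.73% of them had one, against 34.0% of macrophages before thinning. Cells without a Trp53 UMI may therefore still hold Trp53 RNA, and the shares cannot show whether the 2 genes go together. Of thinned macrophages with a Trp53 UMI, 31.4% (25.8 to 37.4%; 82 of 261) had a Cdkn1a UMI, and of those without, 38.3% (36.9 to 39.8%; 1645 of 4291). For Mdm2 the shares were 19.2 and 17.8%, and for Bax 28.0 and 28.0%. Among tumour cells only 10 thinned cells had a Trp53 UMI, too few to compare.

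Host classes were also set against each other. In neutrophils against macrophages, Sesn2 was 5.86 times as high (5.12 to 6.72), where 12.7% of genes were past 2-fold higher, and Trp53, Bax, Ccng1, Phlda3 and Zmat3 were past 2-fold lower, where 50.6% were. Cdkn1a was 1.44 times the macrophage level. The median log2 ratio was −1.02 over all genes and −0.96 over the 10 members, and the share of members lower was near that of all genes. In fibroblasts against macrophages, Phlda3 (10.9 times) and Zmat3 (3.87 times) were higher, where 21.3% of genes were, and Cdkn1a, Mdm2, Bax and Pmaip1 lower, where 19.8% were.

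Macrophages and neutrophils, which held most Cdkn1a UMIs, were divided by marker genes to see how the targets varied within them. Each cell went to the subset whose marker share was highest relative to the class mean, so a subset is a range of a score and not a type, and 164 of 774 monocyte-marker cells, for example, lay within 1.5 times of another subset. In neutrophils, Cdkn1a stood at 439 CPM (417 to 463) in the 1155 cells with Retnlg, Mmp8 and Ngp, genes of recently arrived neutrophils. It stood at 974 CPM (920 to 1031) in the interferon subset and 1269 CPM (1228 to 1310) in the 1672 Ccl3-high cells. Another 56 neutrophils with none of the markers, with a median of 960.5 UMIs, had 1667 CPM (1353 to 2031). Median UMIs were 2208 in recent, 1644 in interferon and 1541 in Ccl3-high neutrophils, so Cdkn1a was higher where depth was lower. The part of depth in these levels was not tested. Pmaip1 stood at 40.4 CPM (33.9 to 47.9) in recent, 69.8 CPM (60.6 to 80.1) in Ccl3-high and 76.3 CPM (61.6 to 93.3) in interferon neutrophils. Sesn2 had overlapping intervals, with 64.9 CPM (56.5 to 74.2) in recent and 58.2 CPM (49.8 to 67.6) in Ccl3-high cells. Trp53 stood between 9.93 and 14.6 CPM in these 3 subsets, with overlapping intervals.

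Among the 8 macrophage subsets Cdkn1a varied less, from 477 CPM (458 to 497) in Ccr2 and Vcan monocytes to 778 CPM (757 to 800) in Cx3cr1-high cells. Trp53 was highest in cycling macrophages at 101 CPM (93.2 to 110) and lowest in resident-like macrophages (Cd163, Folr2 and Lyve1) at 49.4 CPM (44.3 to 55.0). Cdkn1a in the same cycling subset was 487 CPM, near its lowest. Resident-like macrophages were highest of the 8 for Mdm2 (227 CPM), Bax (376 CPM), Ccng1 (73.1 CPM), Phlda3 (16.5 CPM) and Zmat3 (17.6 CPM). The Ccng1 interval (66.8 to 79.8) lay above those of the other 7 subsets, and the other 4 overlapped with at least 1 subset. Pmaip1 was lowest there, at 36.5 CPM (32.1 to 41.3), overlapping with the osteoclast-gene subset. Interferon macrophages had the most Pmaip1, 105 CPM (92.2 to 118). Bbc3 ranged only from 12.2 to 17.0 CPM, with overlapping intervals at its ends. Depth moved with some of these levels. In the 1169 shallowest and the 1168 deepest macrophages, Ccng1 stood at 71.8 and 42.4 CPM, Trp53 at 51.6 and 70.3 CPM and Cdkn1a at 622 and 569 CPM, and cycling macrophages had a median of 10550.5 UMIs against 6353.5 in resident-like ones. The part of depth in the subset levels was not tested.

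**Figure D3:**
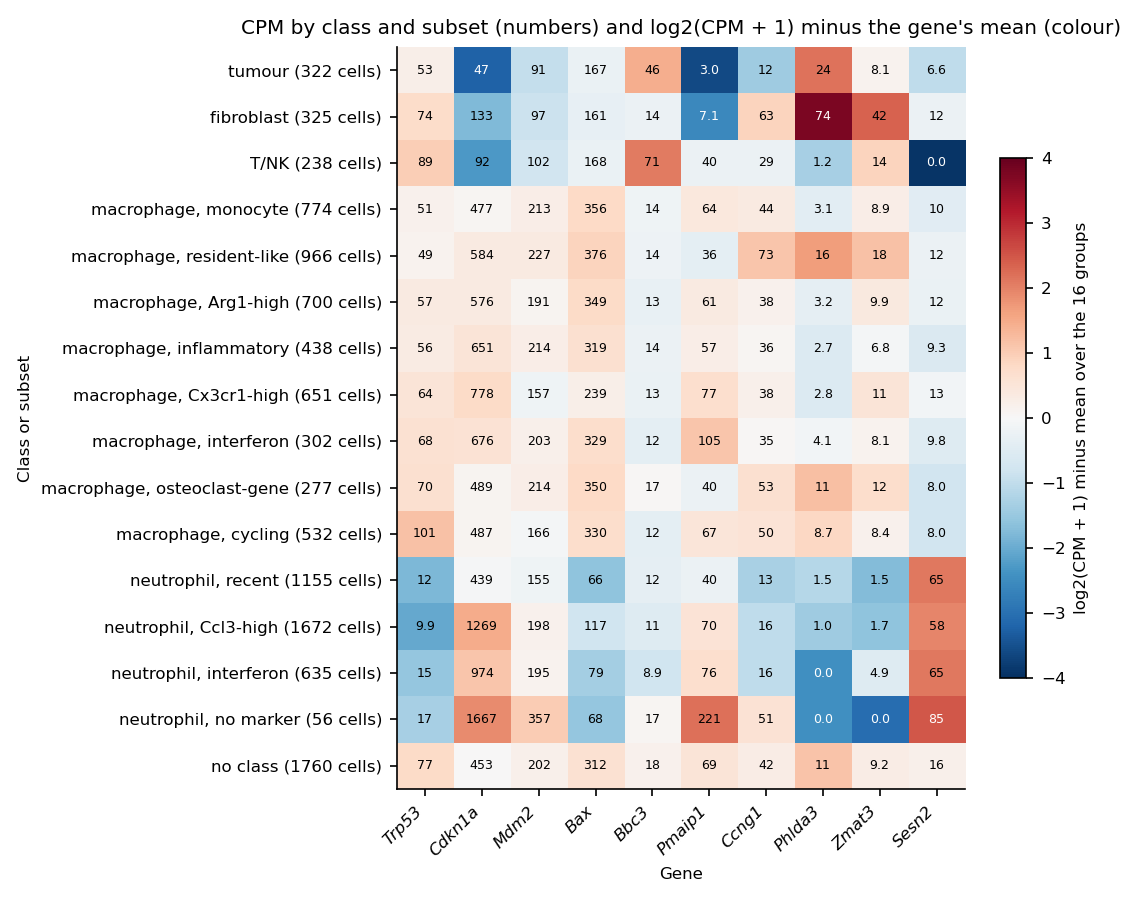
Each cell gives the level of a gene in CPM as a number and, as colour, its log2(CPM + 1) minus the gene's mean over the 16 classes and subsets of at least 50 cells (rows, with the number of cells; columns are the 10 genes). Cdkn1a runs from 46.9 CPM in tumour cells to 1667 CPM in the 56 neutrophils without a subset marker, and Ccng1 is highest among macrophages in the resident-like subset, at 73.1 CPM.

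Over these 16 groups, levels of some targets ran together and those of others ran opposite. As a description, Pearson's r of log2(CPM + 1) was 0.88 for Cdkn1a and Mdm2, 0.86 for Cdkn1a and Pmaip1, and 0.74 for Phlda3 and Zmat3. It was −0.76 for Bbc3 and Cdkn1a, −0.74 for Phlda3 and Pmaip1, and −0.69 for Sesn2 with Zmat3 and with Bbc3. For Trp53 it was 0.79 with Bax, 0.78 with Zmat3, 0.60 with Phlda3, 0.57 with Ccng1, 0.36 with Bbc3, −0.26 with Pmaip1, −0.34 with Mdm2, −0.48 with Cdkn1a and −0.83 with Sesn2. The groups share 1 library, and 12 of them are subsets of 2 classes, so they are not independent points. Of 10128 genes with a mean of at least 5 CPM that mark no class or subset, those with a pattern most like Trp53 were Rwdd1 (0.98), Hspe1 (0.98), Micos13 (0.98), Rpl37a (0.98) and Nop10 (0.97). Among the 5 most like Cdkn1a were Gab2 (0.96), Gm40645 (0.96), Plek (0.96) and Sdcbp (0.96). No other of the 10 genes was among either set of 5.

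Further genes of the pathway, 84 in 4 lists, were counted in the same way against the background of 27.4% of genes higher and 20% lower. Of 21 regulators of p53, 19 could be counted, with 8 higher in tumour than in host cells, 0 lower and a median log2 ratio of 0.49. In deep tumour barcodes 7 were higher and 1 lower, where 26.0% and 26.9% of all genes were. Chek1, a kinase of the DNA damage response, stood at 20.7 CPM in tumour and 3.93 CPM in host cells, a ratio of 5.27 (3.95 to 6.98). The damage kinases Atm and Atr were 4.199 (3.37 to 5.198) and 2.81 times (2.25 to 3.48) the host level, and Trp53bp1, a damage sensor, 3.87 times (3.21 to 4.63). Ppp1r13l, an inhibitor of p53, and Ppp1r13b, which steers p53 to death genes, were 5.66 (3.89 to 8.12) and 3.28 times (2.74 to 3.90) the host level. Cdkn2a, whose product Arf blocks Mdm2, had 0 UMIs in kept tumour cells, 2 in deep tumour barcodes and 22 in host cells, and counts as within 2-fold for kept cells and as the 1 regulator lower for deep barcodes. The p53 relatives Trp63 and Trp73, with 11 and 3 UMIs over both sides, were not counted.

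Targets outside the 10 went both ways. Of 25 targets in cell cycle arrest, repair and metabolism, 9 were higher, 8 lower and 8 within 2-fold, and in deep tumour barcodes 7 were higher, 8 lower and 10 within. Sfn, the epithelial checkpoint protein 14-3-3 sigma, stood at 130 CPM in tumour cells and 1.55 CPM in host cells, a ratio of 83.7 (65.4 to 108). Sesn3, a relative of Sesn2, was 18.2 times (16.3 to 20.4) the host level, against 0.357 for Sesn2. Ddb2, which recognises ultraviolet damage, was 4.40 times (3.35 to 5.73), and Ddit4, an mTORC1 inhibitor that also answers to hypoxia, 3.99 times (3.55 to 4.47). Dram1, a lysosomal protein of autophagy, was 0.128 times (0.0771 to 0.201) and the kinase Plk2 0.261 times (0.219 to 0.309) the host level. Of the genes with a promoter match, Ckap2, a spindle protein, was 3.06 times (2.11 to 4.34) the host level, Rps27l 1.05 times and Gtse1, from 7 tumour UMIs, 1.34 times (0.522 to 2.90), against 0.0790 for Cdkn1a. In deep tumour barcodes Ckap2 was 6.98 times (5.85 to 8.34), Rps27l 1.39 times and Gtse1 2.98 times (2.13 to 4.17) the host level, and Cdkn1a 0.0947 times. The cell cycle genes described below had a median log2 ratio of 0.68 in kept tumour cells and 1.98 in deep tumour barcodes. The part of cycling in the Ckap2 and Gtse1 ratios was not tested.

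Of 20 targets in cell death or at the cell surface, 5 were higher, 4 lower and 11 within 2-fold. In deep tumour barcodes 6 were higher, 8 lower and 6 within. Apaf1, Bcl2l11, Sulf2 and Eda2r were past 2-fold lower there and within 2-fold in kept cells. Perp, a desmosome protein of epithelia, stood at 81.1 CPM in tumour and 0.489 CPM in host cells, from 24 host UMIs, a ratio of 166 (109 to 264). Epha2, a receptor kinase, was 16.2 times (13.6 to 19.4), Tnfrsf10b, the TRAIL death receptor, 7.0 times (5.13 to 9.47) and Ikbip 3.60 times (3.09 to 4.17) the host level. The death receptor Fas was 0.240 times (0.171 to 0.327) and Dcxr, a carbonyl reductase, 0.329 times (0.202 to 0.505). Sfn, Perp and Epha2 are also genes of epithelia, and the epithelial check markers summed to 648 CPM in tumour cells and 8.50 to 19.2 CPM in the host classes. Their part in these ratios was not tested.

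Cell cycle genes that p53 is known to repress through p21 and the DREAM complex were higher in tumour cells or within 2-fold. Of 18, 6 were past 2-fold higher, where 27.4% of all genes were, and 0 lower. In deep tumour barcodes 17 were higher, where 26.0% of all genes were, and 0 lower. Cdc25c, from 20 tumour UMIs, was 8.20 times (4.50 to 14.5) the host level. Cdc20 was 3.64 times (3.07 to 4.30), Ccnb2 2.60 (2.20 to 3.06), Top2a 2.48 (2.21 to 2.77), Cdk1 2.39 (2.08 to 2.75) and Plk1 2.26 times (1.57 to 3.17). These genes drive mitosis and DNA replication. In deep tumour barcodes Cdk1 was 5.79 and Cdc20 7.22 times the host level. Depth was not matched there, because deep barcodes began at 20000 UMIs and the kept cells ended at 19989. Of the 84 genes in the 4 lists, 37 were higher and 17 lower in deep tumour barcodes against host cells. The shares of all genes were 26.0% higher and 26.9% lower. Against deep fibroblast barcodes, 21 of the listed genes were higher and 12 lower. The shares of all genes there were 20.3% and 17.1%, near those of the lists. The part of depth in the cell cycle counts was not tested. Against fibroblasts, 13 of the 18 were higher, where 25.2% of all genes were, and 0 lower, where 16.6% were.

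**Figure D4:**
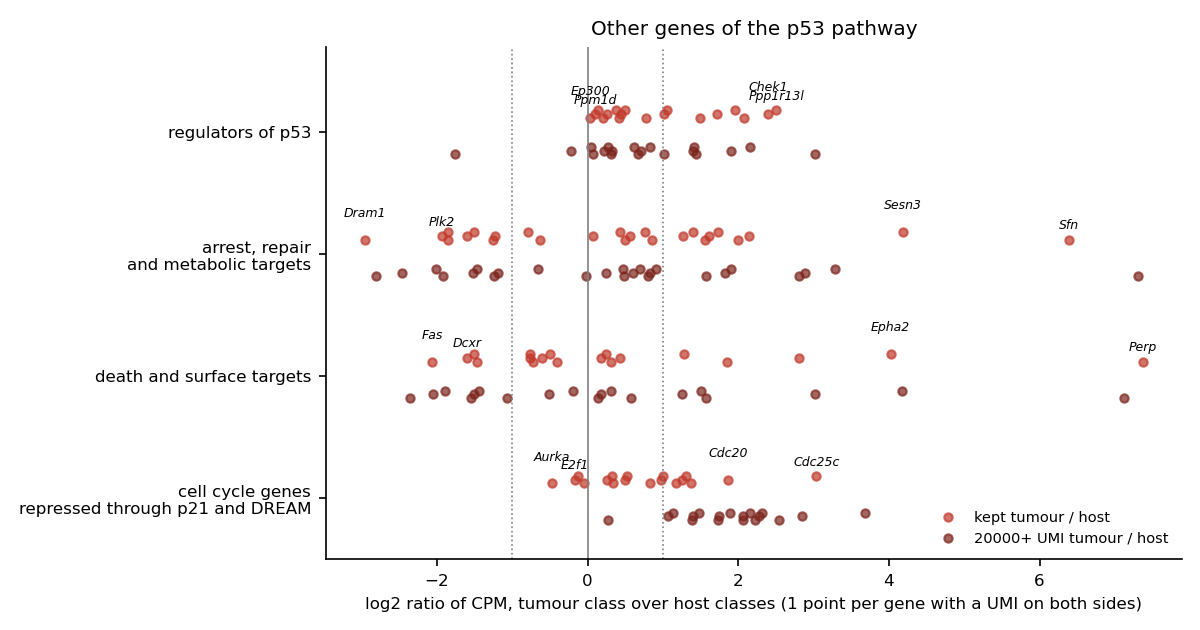
Log2 ratio of CPM, tumour class over host classes (horizontal axis), for the other pathway genes in 4 lists, 1 point per gene with a UMI on both sides, for kept tumour cells and deep tumour barcodes; the dotted lines mark 2-fold, and the 4 outermost genes of each list in kept cells are named. Targets lie on both sides, from Dram1 at −2.96 to Perp at 7.37, while no cell cycle gene lies below the lower line.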

How the data were processed

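RNA of single cells was captured on Chromium 3′ v3 per the labels' protocols. The authors deposited whole-number UMI counts for each gene and barcode, and the file headers name Cell Ranger 8.0.1 as their source. The submitters' processing notes also list STAR. The genome build was not given in the sources used here. Treated barcodes of the authors' list of kept cells were all in the matrix, and the control library's counts were not analysed here.

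The 10 genes, the pathway lists and the alternatives were chosen with earlier results of these data known. UMIs were summed per class in Python 3.11.15 (pandas 2.3.3, scipy 1.17.1, numpy 2.4.6). A side with 0 UMIs was counted as 3 for calls, never passing a ratio of 1. Named pathway genes were up to 6 per list with the largest absolute log2 ratio and at least 50 UMIs. Cdkn2a, Trp63, Trp73, Ckap2, Rps27l, Gtse1, Apaf1, Bcl2l11, Sulf2 and Eda2r, and genes named for a turned sign, lie outside this rule and were picked after their values were seen. The code for ratios and intervals was tested on simulated data. Free RNA was not subtracted and no doublet caller was run; 19 tumour cells met more than 1 threshold. Alternatives changed the cells, host group, thresholds, fold, UMI minimum and thinning. Of the 5 genes most like Cdkn1a, 1 is not reported here.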

Additional observations from a re-analysis of the deposited data

How the results depend on the processing

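The alternatives were other cells, another host group, other tumour thresholds, another fold and no thinning, and 3 of them (deep tumour barcodes alone, fibroblasts alone as host, and deep tumour against deep fibroblast barcodes) were chosen after seeing the data. Of 72 summary counts under alternatives, 64 stayed within 1.5 times their value. Of values for single genes, 1344 stayed inside their main counting interval and 594 moved outside it. Another 14 were ratios past 2-fold that turned to the other side of 1. The number of members past 2-fold higher, 2, was 1 with all barcodes, with deep barcodes added, with deep tumour barcodes alone, with fibroblasts alone as host and between deep barcodes, and 0 with the host classes at equal weight. The number lower stayed between 4 and 6, but Zmat3 came in and Mdm2 dropped out with all barcodes, with deep barcodes added and with the host classes at equal weight. With a mean over cells of each cell's CPM, 0 members were lowest in tumour cells of the 5 classes, in place of 4. Without thinning, 4 members had a lower share of cells in tumour than in host, in place of 8. The cause of each was not tested.

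The log2 ratio of Fdxr, −1.25, was 0.036 with all barcodes, 0.059 with deep barcodes added and 0.61 with deep tumour barcodes alone. Against fibroblasts, signs turned for Phlda3 (−1.64), Plk3 (0.31), Gpx1 (0.27), Btg1 (0.52) and Ikbip (−1.07), and between deep barcodes for Phlda3 (−2.003), Wrap53 (−0.052), Plk3 (0.49), Gpx1 (0.39), Btg1 (0.37) and Ikbip (−1.40). Over the 10 other planned settings, ratios ranged from 0.682 to 1.25 for Trp53, 0.0488 to 0.139 for Cdkn1a, 0.0175 to 0.156 for Pmaip1, 1.67 to 4.51 for Bbc3 and 1.14 to 2.96 for Phlda3. A mean over cells moved the all-gene median of 0.22 (log2) to 0.33. With all barcodes 23.5% of genes were higher and 26.5% lower. At 1.5-fold Bax joined the lower genes, where 26.4% of genes were.

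No paired analysis was possible because each group was 1 library, and no library could be left out. Depth limits Pmaip1, Zmat3 and Sesn2 in kept tumour cells, with 10, 27 and 22 UMIs.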
